A study of Mus musculus with 8 samples.

Results

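Chemokines are small secreted proteins that steer leukocytes through receptors on the cell surface, and activated CD8+ T cells release several of them together with interferon gamma and granules. The 9 chemokine genes described here are Ccl3, Ccl4, Ccl5, Xcl1, Ccl1, Ccl6, Ccl9, Cxcl9 and Cxcl10, of 16593 named genes on the array. They were chosen by name as CC, C and CXC chemokine ligands, and 10 probes carried their symbols in the platform annotation, with 2 probes for Ccl4 and 1 for each other gene.

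RNA of CD8+ T cells was hybridised to single-colour Illumina bead arrays, 1 array per sample. The ASC knockout group (4 samples) carried a knockout of ASC, the inflammasome adaptor encoded by Pycard, and the wild type group (4 samples) did not; both were of the C57BL/6 strain. The title of the study links ASC to cytotoxic T cell differentiation that depends on T-bet, so the comparison asks here whether chemokine transcripts differ without ASC. Neither the labels nor the files say which knockout allele was used, how old the mice were, whether the cells were stimulated, how they were sorted or whether each sample came from its own animal. Any p-value here therefore rests on sample-to-sample spread that could be technical.

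The middle of the signals was alike, with array medians of at most 131.5 in the knockout and at most 133.8 in wild type. An array detected between 42.8% and 45.4% of its 25697 probes. Pycard had a mean signal of 122 ± 2.57 in the knockout, detected on 0 of 4 arrays, and 500 ± 19.0 in wild type, detected on 4 of 4 arrays (SD, n = 4 each). After background correction and normalization its mean log2 level was 4.46 in the knockout, not above background, and 8.56 in wild type. Set against the dimmest detected probes of the knockout arrays, at a mean of 4.89, the knockout level of Pycard lay at least 12.7-fold lower than in wild type on that scale (limma adjusted p = 1.15e-09). None of the 9 chemokine genes lies on chromosome 7, which carries Pycard: Xcl1 is on chromosome 1, Cxcl9 and Cxcl10 are on chromosome 5, and the other 6 are on chromosome 11. Of the CD8+ T cell list 5 genes were tested, Cd8b1, Cd3d, Cd3e, Cd3g and Cd2, and 0 differed past the test. Among these only Cd8b1 encodes a part of CD8. The Cd8a probe was detected on 0 of 8 arrays, while that of Cd8b1 was at log2 levels of 14.68 to 14.81 in the knockout and 14.66 to 14.86 in wild type. The arrays measure the RNA of the whole sample, so fewer cells of a type and less RNA per cell cannot be told apart.

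No chemokine transcript passed the test between knockout and wild type, and Ccl1 came nearest. All 10 probes were tested, and 0 were called by limma's adjusted p at a threshold of 0.05, against 0.843% of the 11270 tested probes, with 0.435% higher and 0.408% lower in the knockout. Those were 49 probes higher and 46 lower over the whole array, or 51.6% higher among the calls. Scaling by the median over all probes of each array (median scaling) in place of quantile normalization gave 33 higher and 67 lower, or 33% higher. At an unadjusted limma p under 0.05 there was 1 chemokine probe, against 13% of all tested probes. In 5 probes the difference was above 0 and in 5 below, with a median log2 difference of -0.01, while the median over all tested probes was -0.0068. The groups did not overlap at 1 of the 10 probes, against 8.12% of all tested probes (3.91% higher and 4.21% lower in the knockout), and both shares were close to the background.

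**Figure D1:**
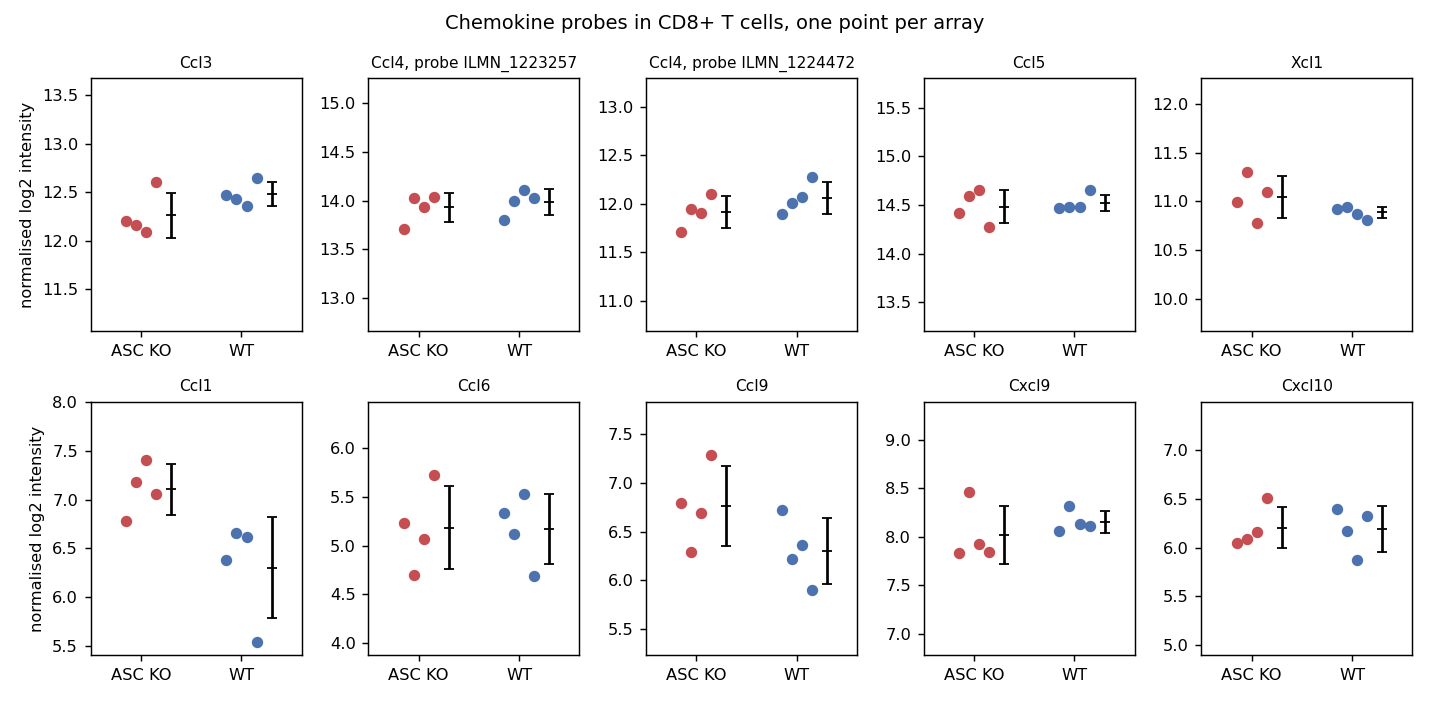
Normalised log2 intensity (vertical axis, the same span in each panel) of the 10 chemokine probes on each of the 4 ASC knockout arrays (red, left) and 4 wild type arrays (blue, right), with the mean and SD of each group in black. Ccl1 is the panel in which all knockout arrays, at 6.78 to 7.41, lie above all wild type arrays, at 5.54 to 6.66.

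Detection differed little between the groups. A probe counted as detected on an array where its deposited detection p-value was under 0.05. The probes of Ccl3, Ccl4 (both), Ccl5, Xcl1, Ccl1, Ccl9, Cxcl9 and Cxcl10 were detected on 4 of 4 knockout and 4 of 4 wild type arrays. Ccl6 was detected on 3 of 4 knockout and 3 of 4 wild type arrays, failing on knockout replicate 2 and wild type replicate 4. With detection p under 0.01, the same 9 probes were detected on all 8 arrays and Ccl6 on 3.

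Ccl3, Ccl4 and Ccl5 are inflammatory chemokines that draw in T cells and macrophages, and effector CD8+ T cells are a known source of all of them. Their transcripts were bright in both groups, and none differed past the test. The values that follow are normalised log2 intensities unless called signals. Ccl3 (probe ILMN_1253919), known as MIP-1 alpha, was at 12.20, 12.16, 12.09 and 12.60 in knockout replicates 1 to 4, against 12.47, 12.43, 12.36 and 12.65 in wild type replicates 1 to 4. Knockout replicates 1 to 3 lie below every wild type array, and knockout replicate 4 lies among the wild type arrays, so the groups overlap. The log2 difference of Ccl3 was -0.22 ± 0.121 (SE, n = 4 each, 95% interval -0.49 to 0.05, limma adjusted p = 0.493). Without knockout replicate 4 it was -0.33, with a limma adjusted p of 0.209.

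Ccl4, or MIP-1 beta, lies beside Ccl3 on chromosome 11 and was read by a pair of probes. Probe ILMN_1223257 was at 13.71, 14.03, 13.94 and 14.04 in the knockout, against 13.80, 14.00, 14.11 and 14.03 in wild type. Probe ILMN_1224472 was at 11.71, 11.95, 11.90 and 12.10 in the knockout, against 11.89, 12.01, 12.07 and 12.28 in wild type. Both probes had their lowest knockout value in replicate 1 and their lowest wild type value in replicate 1, and the groups overlap at both. Their log2 differences were -0.05 ± 0.103 (95% interval -0.28 to 0.17, limma adjusted p = 0.872) and -0.14 ± 0.111 (-0.39 to 0.10, 0.639; SE, n = 4 each). The first was 0.02 without knockout replicate 1, -0.12 without wild type replicate 1 and -0.18 with median scaling. The second was -0.08 without knockout replicate 1, -0.07 without wild type replicate 4 and -0.26 with median scaling.

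Ccl5 (probe ILMN_1231814), known as RANTES and stored by memory CD8+ T cells for rapid release, was at 14.42, 14.59, 14.65 and 14.27 in the knockout, against 14.47, 14.48, 14.48 and 14.65 in wild type. The wild type values lie inside the range of the knockout values apart from a tie at the top. The log2 difference was -0.04 ± 0.101 (SE, n = 4 each, 95% interval -0.26 to 0.19, limma adjusted p = 0.917), an interval from 0.835-fold to 1.14-fold. It was 0.03 without knockout replicate 4, 0.01 without wild type replicate 4 and -0.15 with median scaling. The Ccl5 probe ranked between 43 and 74 by signal among the probes of each array, and the brighter Ccl4 probe between 81 and 118, with mean deposited signals of 22020 ± 2561 for Ccl5 in the knockout and 24970 ± 2195 in wild type (SD, n = 4 each).

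**Figure D2:**
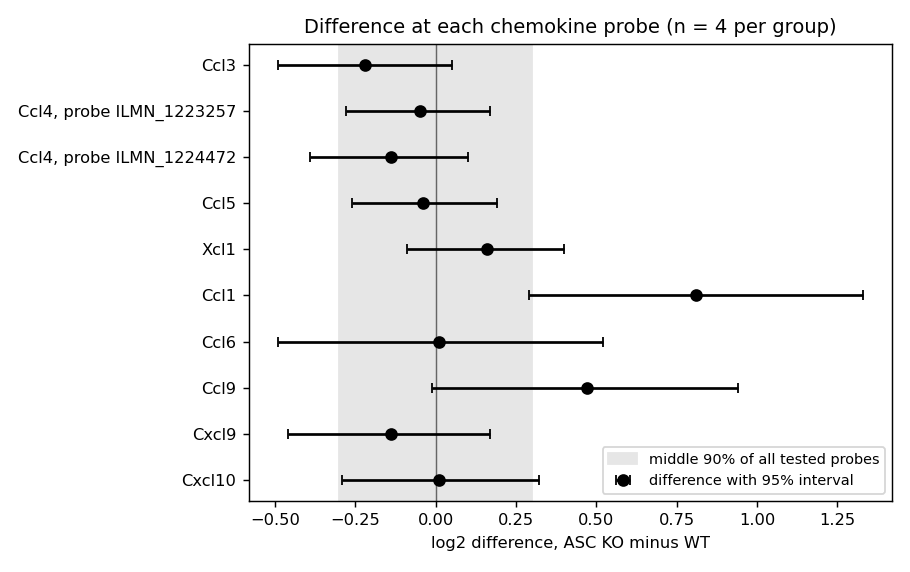
Log2 difference between ASC knockout and wild type (horizontal axis) for the 10 chemokine probes, with 95% intervals from limma (n = 4 per group), and the band that holds the middle 90% of the differences of all tested probes in grey, from -0.30 to 0.30. Ccl1 and Ccl9 lie outside the band, and the interval of Ccl1 alone leaves out 0.

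The deposited signals, before any background correction or scaling, were lower in the knockout for 7 of the 10 chemokine probes. The brighter Ccl4 probe, ILMN_1223257, had signals of 12685.1, 16072.4, 14797.4 and 16188.3 in the knockout, against 16414, 18173.9, 16872.5 and 17262.1 in wild type. All its knockout signals lie below all wild type signals, which happened at 9.65% of all tested probes. Its difference was -0.21 on the log2 signal scale. For Ccl3 the same difference was -0.35, for the other Ccl4 probe -0.29, for Ccl5 -0.18 and for Cxcl9 -0.19. Over the 1000 brightest probes of the arrays, 91.4% had lower signals in the knockout, with a median of -0.15, while the median over all tested probes was -0.0746. The mean signal per array was 498.7 to 520.8 in the knockout and 518.5 to 581.6 in wild type. Quantile normalization removes a shift shared by probes of like brightness, and the source of that shift was not tested.

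**Figure D3:**
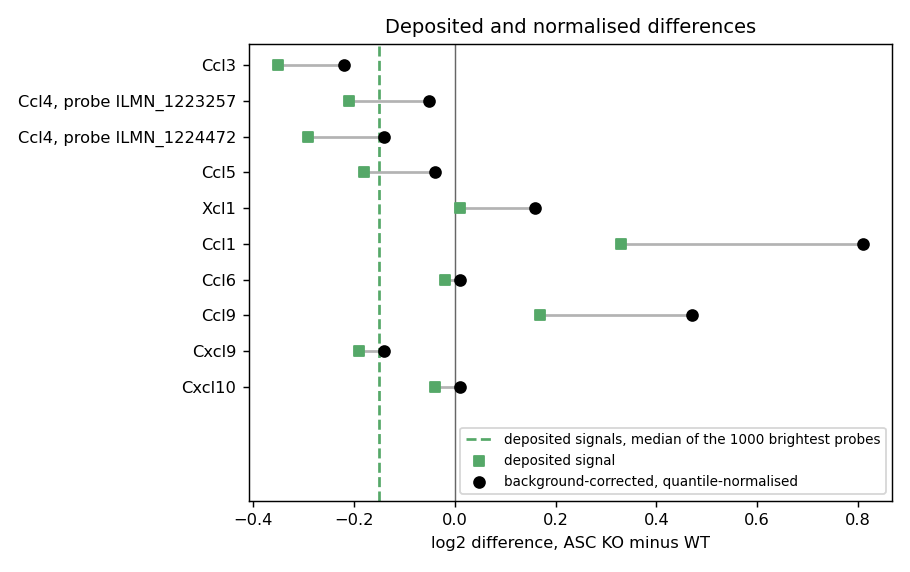
Log2 difference between ASC knockout and wild type (horizontal axis) at each chemokine probe, from the deposited signals (green squares) and after background correction and quantile normalization (black circles), with the median of the deposited differences over the 1000 brightest probes as a dashed line. The deposited differences of Ccl3, of both Ccl4 probes, of Ccl5 and of Cxcl9 lie below that line. The Cxcl9 probe ranked 4288 to 5310 by signal and is not among those brightest probes. Ccl1 is the highest on both scales, at 0.33 and 0.81.

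Xcl1, or lymphotactin, is the C chemokine that T and NK cells release to draw in dendritic cells that carry the receptor Xcr1. Its probe (ILMN_2948552) was at 10.99, 11.30, 10.78 and 11.10 in the knockout, against 10.92, 10.94, 10.87 and 10.81 in wild type. Knockout replicates 1, 2 and 4 lie above every wild type array and knockout replicate 3 lies below them all. The log2 difference was 0.16 ± 0.109 (SE, n = 4 each, 95% interval -0.09 to 0.40, limma adjusted p = 0.606). It was 0.07 without knockout replicate 2 and 0.04 with median scaling. The SD was 0.22 in the knockout and 0.06 in wild type. NK cells also make Xcl1: of 5 NK cell markers 4 had a probe, and Ncr1 and Klri2 were detected on 0 of 8 arrays. The 2 tested were not called, Klre1 at 0.49 ± 0.185 and Klrb1c at 0.04 ± 0.288 (SE, n = 4 each, limma adjusted p = 0.288 and 0.97). The summed level of the list, most of it from Klre1, was 420 to 720 in the knockout and 354 to 413 in wild type, without overlap. The part of NK cells in the Xcl1 values was not tested.

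Ccl1 acts on the receptor Ccr8 of T helper 2 and regulatory T cells, and is made by activated T cells. The transcript was higher in every knockout sample than in any wild type sample, but it did not pass the test over all probes. Its probe (ILMN_1255735) was at 6.78, 7.18, 7.41 and 7.06 in the knockout, against 6.38, 6.66, 6.62 and 5.54 in wild type. The lowest knockout array lies above the highest wild type array, which happened in that direction at 3.91% of all tested probes, and wild type replicate 4 is the lowest of all. The log2 difference of Ccl1 was 0.81 ± 0.234 (SE, n = 4 each, 95% interval 0.29 to 1.33, limma adjusted p = 0.166), or 1.75-fold. A difference as large in either direction was seen at 0.568% of tested probes, but this probe was noisier than most. Its SE of 0.234 stood against a median of 0.109 over all tested probes. By unadjusted limma p it ranked 409 of 11270.

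The Ccl1 probe was dim, and its size depends on the background. Its deposited signals were 217.8, 234.1, 271.6 and 237 in the knockout, against 199.3, 212.8, 200.3 and 155.2 in wild type, so the groups did not overlap before correction either, which happened in that direction at 1.08% of all tested probes. Without background correction the difference was 0.39, with a limma adjusted p of 0.0504. It was 0.56 without wild type replicate 4, and 0.56 to 0.93 over the 8 fits that each left out 1 array, with limma adjusted p between 0.161 and 0.335. Over the 12 other alternatives the adjusted p of Ccl1 lay between 0.0504 and 0.281.

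The receptor genes of these ligands were scarcely represented. Of the receptors looked up, 6 had a probe, 2 were tested and 0 were called over all probes. Ccr8 (probe ILMN_2724465), the Ccl1 receptor, was at 5.92, 6.03, 5.67 and 6.38 in the knockout, against 5.23, 5.54, 5.17 and 5.12 in wild type. As with Ccl1, every knockout array lies above every wild type array. The Ccr8 difference was 0.74 ± 0.151 (SE, n = 4 each, limma adjusted p = 0.0588). It passed without knockout replicate 3 (adjusted p = 0.0469) and in 5 of the 12 other alternatives, and was 0.24 without background correction. Cxcr3 (probe ILMN_2658786), the receptor of Cxcl9 and Cxcl10 on effector T cells, was at 11.68, 11.63, 11.79 and 11.69 in the knockout, against 11.72, 11.86, 11.70 and 11.61 in wild type. Its groups overlap, with a difference of -0.03 ± 0.0827 (95% interval -0.21 to 0.16, limma adjusted p = 0.927; SE, n = 4 each). Ccr1, which binds Ccl3, Ccl6 and Ccl9, and Xcr1 were detected on 0 of 8 arrays.

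Regulatory T cells are known to carry Ccr8, and 1 of their markers, Foxp3, passed the test. Of 8 markers of CD4 and regulatory T cells all had a probe and 6 were tested, all 6 above 0 with a median of 0.48, and Foxp3 was called, at 1.09 ± 0.138 (SE, n = 4 each, limma adjusted p = 0.00576). The summed level of the list was 7229 to 8675 in the knockout and 5184 to 5699 in wild type, without overlap. In knockout replicates 1 to 4 the sum was 7912, 7229, 7279 and 8675, and Foxp3 was at 6.73, 7.06, 6.96 and 7. The sum weighs its bright markers most, such as Ctla4 at 11.15 to 11.55 in the knockout. Cd4 was detected on 1 of 4 knockout and 0 of 4 wild type arrays, and Cd40lg on 0 of 8. Which cells, CD8+ T cells included, carried the transcripts of this list was not tested. The part of CD4 or regulatory T cells in the Ccl1 and Ccr8 values was not tested either.

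**Figure D4:**
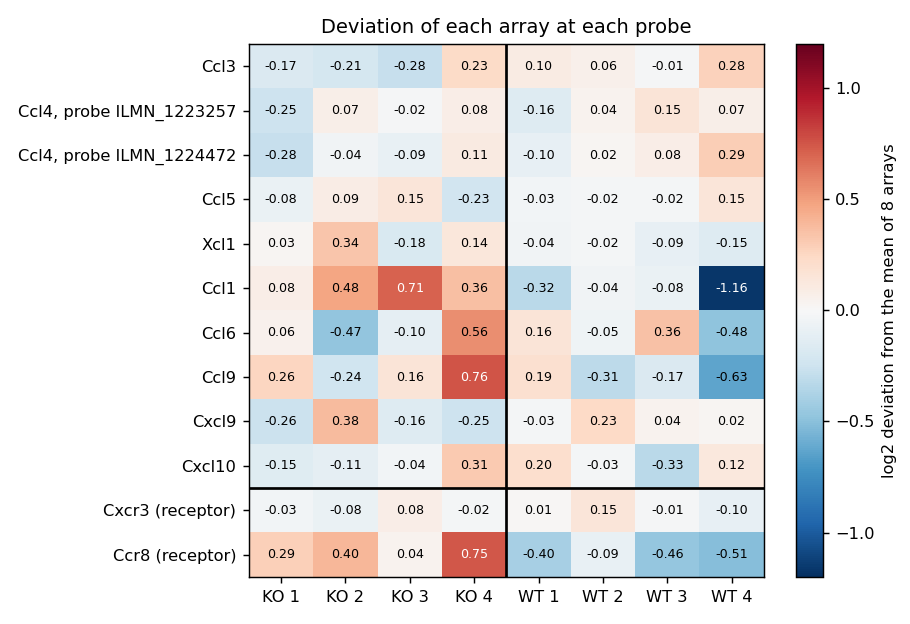
Deviation of each array from the mean of the 8 arrays in log2 units (colour and printed value) for the 10 chemokine probes and the tested receptors Cxcr3 and Ccr8 (rows), with the 4 ASC knockout arrays left of the 4 wild type arrays. The Ccl1 and Ccr8 rows are above 0 on all knockout arrays and below 0 on all wild type arrays, and knockout replicate 4 is the highest of all arrays for Ccl6, Ccl9, Cxcl10 and Ccr8.

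The promoter of Ccl1 is shown because its gene had the largest difference, and that of Ccl9 because it had the next largest. The sequences are the 250 bases before the annotated start, read 5′ to 3′ on the minus strand from RefSeq (build GRCm38.p6), and capitals mark matches to the motifs searched. Such promoters were matched for 7 of the 9 genes. The motifs were the NF-kB consensus, the core of the interferon-stimulated response element (GAAA, any 2 bases, GAAA), the AP-1 site TGANTCA, the T-box site GGTGTGA and the TATA box TATAAA, each on both strands. The NF-kB consensus was in 7.25% of all 32851 promoters, the response element core in 2.98%, TGANTCA in 6.75%, GGTGTGA in 3.33% and TATAAA in 12.4%.
Ccl1, chr11:82179813-82180062: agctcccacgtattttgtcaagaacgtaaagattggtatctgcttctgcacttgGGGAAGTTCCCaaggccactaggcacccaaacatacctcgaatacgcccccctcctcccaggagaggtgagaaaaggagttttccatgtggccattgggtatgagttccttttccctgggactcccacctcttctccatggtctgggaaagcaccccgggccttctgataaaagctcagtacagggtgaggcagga
Ccl9, chr11:83578637-83578886: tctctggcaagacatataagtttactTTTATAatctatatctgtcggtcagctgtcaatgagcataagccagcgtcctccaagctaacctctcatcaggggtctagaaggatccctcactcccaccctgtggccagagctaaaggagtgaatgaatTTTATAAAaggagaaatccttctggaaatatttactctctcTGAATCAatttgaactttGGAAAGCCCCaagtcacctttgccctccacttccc
In the Ccl1 promoter the capitals are a pair of NF-kB matches that overlap on opposite strands. In the Ccl9 promoter they are, in order, a TATAAA match on the opposite strand, a pair of overlapping TATAAA matches, a TGANTCA match and an NF-kB match on the opposite strand.

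Ccl6 and Ccl9 are neighbours on chromosome 11 that signal through Ccr1 and are best known from macrophages and other myeloid cells of the mouse. Ccl9 (probe ILMN_2776603) was at 6.79, 6.29, 6.69 and 7.29 in the knockout, against 6.72, 6.22, 6.36 and 5.90 in wild type. Knockout replicate 4 is the highest and wild type replicate 4 the lowest, and the other arrays overlap. The difference was 0.47 ± 0.215 (SE, n = 4 each, 95% interval -0.01 to 0.94, limma adjusted p = 0.393). It was 0.29 without knockout replicate 4 (adjusted p = 0.581), 0.33 without wild type replicate 4 (0.594) and 0.22 without background correction (0.302).

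Ccl6 (probe ILMN_2694179) was at 5.23, 4.70, 5.07 and 5.73 in the knockout, against 5.33, 5.12, 5.53 and 4.69 in wild type. As for Ccl9, replicate 4 is the highest of the knockout and the lowest of the wild type arrays. The difference was 0.01 ± 0.225 (SE, n = 4 each, 95% interval -0.49 to 0.52, limma adjusted p = 0.985). It turned to -0.17 without knockout replicate 4 and to -0.14 without wild type replicate 4. These levels are near the detection limit, so a small difference was not detectable.

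Markers of macrophages, monocytes and neutrophils were also present. Of 17 markers 15 had a probe and 10 were tested, 7 of them above 0 with a median of 0.07, and 0 were called. Their summed level was 4100, 4056, 2242 and 3211 in the knockout, against 3215, 3348, 3478 and 2477 in wild type. Itgam and Cybb were detected on 0 of 8 arrays. Single markers went in both directions, with S100a8 at 0.83 and S100a9 at 1.08 (limma adjusted p = 0.301 and 0.187). Lyz1 was at -0.17 and Lyz2 at -0.21 (limma adjusted p = 0.78 and 0.695). The part of these cells in the Ccl6 and Ccl9 values was not tested.

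Cxcl9 and Cxcl10 are ligands of Cxcr3 that interferon gamma induces in many cell types, and they draw effector T cells into inflamed tissue. Their promoters are shown because the genes are neighbours on chromosome 5 with a shared inducer but hold different matches in this window.
Cxcl9, chr5:92328080-92328329: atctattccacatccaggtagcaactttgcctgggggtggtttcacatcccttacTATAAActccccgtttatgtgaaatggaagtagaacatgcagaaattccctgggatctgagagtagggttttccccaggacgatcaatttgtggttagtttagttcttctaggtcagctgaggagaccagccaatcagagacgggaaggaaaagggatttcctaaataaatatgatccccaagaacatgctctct
Cxcl10, chr5:92348890-92349139: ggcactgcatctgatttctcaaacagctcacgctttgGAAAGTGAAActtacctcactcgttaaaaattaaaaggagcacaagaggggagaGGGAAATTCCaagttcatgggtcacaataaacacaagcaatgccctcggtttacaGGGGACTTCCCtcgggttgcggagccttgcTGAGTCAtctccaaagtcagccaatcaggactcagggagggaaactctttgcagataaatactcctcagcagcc
The Cxcl10 capitals are, in order, the response element core, an NF-kB match, a pair of overlapping NF-kB matches and a TGANTCA match. The Cxcl9 capitals are a TATAAA match, and the absence of the other motifs says only that these letters are not in this window. GGTGTGA, the T-box site, was found in 1 of the 7 promoters, that of Xcl1.

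Cxcl9 (probe ILMN_1215862) was at 7.83, 8.46, 7.93 and 7.84 in the knockout, against 8.06, 8.32, 8.13 and 8.11 in wild type. Knockout replicates 1, 3 and 4 lie below every wild type array and knockout replicate 2 above them all. The difference was -0.14 ± 0.142 (SE, n = 4 each, 95% interval -0.46 to 0.17, limma adjusted p = 0.728). Without knockout replicate 2 it was -0.29 (limma adjusted p = 0.227), and without knockout replicate 1 or 4 it was -0.08 (0.866 and 0.862). It was -0.09 without wild type replicate 2 and -0.23 with median scaling.

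Cxcl10 (probe ILMN_3142803) was at 6.05, 6.09, 6.16 and 6.51 in the knockout, against 6.40, 6.17, 5.87 and 6.32 in wild type. The groups overlap, with a difference of 0.01 ± 0.137 (SE, n = 4 each, 95% interval -0.29 to 0.32, limma adjusted p = 0.981). Scaling by the array median turned it to -0.04. Cxcl11, a further Cxcr3 ligand, was detected on 0 of 8 arrays. Dendritic cells, another source of these ligands, had 4 of 10 markers tested and 0 called, with a summed level of 1124 to 1782 in the knockout and 1297 to 1638 in wild type, and Flt3, Cd209a, Xcr1 and Clec9a were detected on 0 of 8 arrays.

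Genes of the interferon gamma pathway that induces Cxcl9 and Cxcl10 lay on both sides of 0. Of 12 genes 10 were tested, 5 above and 5 below 0 with a median of -0.10, against 0 over all named tested genes, and 0 were called at their brightest probe. Ifng (probe ILMN_2791459), the inducer itself, was at 12.15, 12.55, 12.55 and 12.72 in the knockout, against 12.17, 12.27, 12.50 and 12.33 in wild type. Those groups overlap, with a difference of 0.17 ± 0.127 (SE, n = 4 each, limma adjusted p = 0.616), which was 0.29 without knockout replicate 1, 0.10 without knockout replicate 4 and 0.06 with median scaling. Irf1 (probe ILMN_2834777), a transcription factor gene downstream of interferon gamma, was at 12.33, 12.44, 12.46 and 12.44 in the knockout, against 12.56, 12.70, 13.26 and 12.99 in wild type. All knockout arrays lie below all wild type arrays, with a difference of -0.46 ± 0.139 (SE, n = 4 each, limma adjusted p = 0.184). This brightest Irf1 probe passed with median scaling (limma adjusted p = 0.0421). Its 2 dimmer probes ILMN_2649067 and ILMN_2649068, named after their values were seen, were called lower, at -0.69 ± 0.114 (limma adjusted p = 0.026) and -0.84 ± 0.0996 (0.00479; SE, n = 4 each), so the Irf1 probes agreed in direction and differed in size.

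Among the products that activated CD8+ T cells release along with chemokines, the called genes went in both directions. Of 12 genes 11 were tested, with 2 called higher and 1 lower, 6 above 0 and a median of 0.17. Over all 7759 named tested genes, 46 were called higher and 34 lower at their brightest probe. Csf2 (probe ILMN_2749412), the gene for GM-CSF, rose by 1.89 ± 0.299 on the log2 scale (SE, n = 4 each, limma adjusted p = 0.0211), and the call was lost without knockout replicate 1 (adjusted p = 0.0517) or wild type replicate 3 (0.0573), and with the trend and robust variance (0.0674). Tnfsf14 (probe ILMN_2851576), the costimulatory ligand LIGHT, was at 8.72, 8.72, 9.05 and 8.87 in the knockout, against 7.73, 8.41, 8.14 and 8.13 in wild type. It rose by 0.73 ± 0.14 (SE, n = 4 each, limma adjusted p = 0.0455), and of the 8 fits that each left out 1 array the call was kept in that without wild type replicate 2, with adjusted p up to 0.113 in the others. It was kept in 8 of the 12 other alternatives and lost with median scaling (0.0567), without the detection filter (0.0799), with array weights (0.0538) and with the replicate block. Gzmb (probe ILMN_2653555), the gene for granzyme B, fell by 0.80 ± 0.149 (SE, n = 4 each, limma adjusted p = 0.0439), and of the 8 fits that each left out 1 array the call was kept in that without wild type replicate 3, with adjusted p up to 0.129 in the others. It was kept in 11 of the 12 other alternatives and lost without the detection filter (0.0799), and the difference was -0.40 without background correction. Whether the chemokine probes differ in response from these genes was not tested.

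With the replicate number as a block, the calls of Csf2 (adjusted p = 0.0863) and Tnfsf14 (0.0738) were lost and that of Gzmb was kept (0.0291).

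Of 9 transcription factor genes of effector CD8+ T cells 7 were tested and 0 called, with a median of -0.04. The brightest were Batf, an AP-1 factor, at -0.15 ± 0.103 (limma adjusted p = 0.579), and Id2, an inhibitor of E proteins, at -0.04 ± 0.105 (0.919; SE, n = 4 each). Tbx21, the gene for T-bet, was named with its value known and stood at -0.06 ± 0.118 (0.874).

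The other chemokine ligands of the mouse were mostly below detection. Of 30 further ligands 29 had a probe, 3 were tested and 0 were called, with differences of 0.13 ± 0.165 for Ccl27a, 0.08 ± 0.116 for Ccl25 and 0.25 ± 0.167 for Ccl24 (SE, n = 4 each, limma adjusted p = 0.802, 0.84 and 0.578). Ccl24 was named after its value was seen.

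The named genes whose levels ran most like each chemokine over the 8 arrays were sought among all tested named genes, as a description only, for the members detected on all 8 arrays; the genes compared share the arrays and the genotype split. For Ccl3 these were Gorasp2, Ceacam13 and Ctnnbip1 (Pearson's r of 0.953, 0.947 and 0.94). For Ccl4 they were Fam20b, Tmod4 and Donson (0.979, 0.963 and 0.962), and for Ccl5 Rap2b, Lyrm2 and Amdhd2 (0.967, 0.923 and 0.907). Xcl1 was followed by Lrrc40, Ccar1 and Uros (0.943, 0.937 and 0.936). Ccl1 was followed by Srp68, Cept1 and Ap3s2 (0.954, 0.947 and 0.943). The values for Ccl9 were 0.966 with Zmym3, 0.959 with Alox5ap and 0.956 with Odc1. Cxcl9 ran with Mettl6, Alkbh8 and Rrp36 (0.954, 0.949 and 0.948), and Cxcl10 with Adk, Faap20 and Cdc20 (0.958, 0.947 and 0.925). In this search each chemokine entered with its brightest probe, and every other gene with its tested probe of highest correlation. No chemokine was among the 3 nearest genes of another, and none of the genes named in this search passed the test.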

How the data were processed

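The arrays were Illumina MouseRef-8 designs, and the submitters' processing notes name GenomeStudio without a version. Intensities were deposited as signals that were not normalized, per the file headers, beside a deposited detection p-value for every probe and array. The authors' deposited value table holds log2 values that equal quantile-normalized log2 signals centred on each probe's median, within 0.000589. Its scale and centring were found from the values.

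Intensities of 25697 probes were corrected with limma's nec (background inferred from the detection p-values, offset 16), then log2-transformed and quantile-normalized. Probes detected (p under 0.05) on 4 or more of the 8 arrays, 11270 or 43.9%, were tested with limma's lmFit and eBayes, knockout minus wild type, with Benjamini-Hochberg adjustment over all tested probes and a threshold of 0.05. Gene lists used the brightest tested probe per gene. The summed level of a marker list adds, over its genes with a probe, the brightest probe's normalized intensity on the linear scale less the offset. Of all probes, 23978 had 1 gene symbol. The named genes were all member probes, Pycard, the called genes of 5 related lists or otherwise their 2 brightest, and the 3 genes most correlated with each member detected on all 8 arrays. The members and lists were chosen with earlier results of these data known. The fit was tested on simulated data. Alternatives changed the background, the normalization, the filter, the source of values, the weights, the variance model, the replicate block and the arrays used. Median scaling over the tested probes was chosen after seeing the data. The number of arrays limits the precision, and no slide or batch is given in the labels. Computations used R 4.3.3 and limma 3.58.1.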

Additional observations from a re-analysis of the deposited data

Results flagged for a closer look

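Of 42 groups of 4 values at the chemokine probes and the related genes named, 3 held an array whose gap to its neighbour was a larger share of the range of the group than Dixon's 95% critical value, where chance gives about 1 in 20, or 2.1. Knockout replicate 2 stood above the other knockout arrays for Cxcl9, at 8.46 against 7.83 to 7.93 (ratio 0.843). In wild type, replicate 4 had the highest Ccl5 level, 14.65 against 14.47 to 14.48 on the rest (ratio 0.951), and the highest Ccl27a level, 7.49 against 6.93 to 7.0 (ratio 0.873).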

How the results depend on the processing

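No chemokine probe was called under any of the 20 alternatives, and 188 of the 198 alternative values at chemokine probes kept their direction. That count overstates stability. The detection filters, the trend and robust variance and the replicate block could not change a log2 difference in this design. The deposited value table gave the same differences as no background correction. Ccl6 had no value under the 2 stricter detection filters, which it did not pass. Scaling by the array median turned Cxcl10 to -0.04. The other reversals at chemokine probes came from leaving out 1 array, which moved the brighter Ccl4 probe between -0.12 and 0.02, Ccl5 between -0.09 and 0.03, Ccl6 between -0.17 and 0.18 and Cxcl10 between -0.10 and 0.08. Outside the chemokine probes, leaving out 1 array moved Cxcr3 between -0.06 and 0.02 and Id2 between -0.12 and 0.03. The count of all tested probes called was 121 higher and 103 lower without background correction and likewise from the deposited value table. It was 104 and 82 with an offset of 50, 126 and 109 with the trend and robust variance, and 31 and 31 without the detection filter. Without 1 array it ran from 15 to 41 higher and from 17 to 40 lower. With the replicate number as a block 29 were higher and 22 lower, the Ccl1 adjusted p was 0.133, and no chemokine was called; same-numbered arrays deviated together at correlations of 0.0139, 0.107, 0.132 and -0.0999, so the numbers were not taken as pairs. Batf ran between -0.22 and -0.06 without 1 array. Signals near the background limit Ccl1, Ccl6, Ccl9 and Cxcl10, and without background correction Ccl1 was 0.39 and Ccl9 0.22.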
